A study of Homo sapiens with 4 samples.

Results

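The genes of glycolysis, the pentose phosphate pathway and the tricarboxylic acid (TCA) cycle were described in m6A-seq data from HEK293T cells, a human embryonic kidney cell line. The set holds 57 genes, chosen by gene symbol from the enzymes of central carbon metabolism, and the counts of a gene's transcripts were summed. The set was drawn up because FH, the gene of the TCA cycle enzyme fumarate hydratase, had shown a large decrease of m6A enrichment in these same counts, so the FH values are a description and were not tested. All 57 genes were among the 14911 gene names listed in any library, and 30 of them averaged 50 counts or more per library, the minimum used here, which 5320 genes passed in all. The other 27 genes had mean counts between 0.75 and 45.75 with a median of 17.

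There were 4 libraries of poly(A)+ RNA, all from HEK293T cells exposed to X-rays. A control shRNA (shCTL) or an shRNA against the m6A demethylase ALKBH5 (shA5) was expressed in the cells, and from each population the fragmented RNA was sequenced before (input) and after (m6A-IP) capture by an m6A antibody. The dose was 10 Gy, the shRNAs were delivered by pLKO.1 lentivirus with puromycin selection of the pool, and no unirradiated library was part of these 4. The time from exposure to harvest and which of the ALKBH5 shRNAs was used are not given for these libraries in the sources used here. Each group had 1 library, so differences between the populations could not be set against replicates, no p-value was computed, and the 95% intervals below cover counting error only.

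The shallowest library was the shA5 input with 1311390 counts and the deepest the shCTL m6A-IP with 3944402. A count of 3 stood for 0.761 to 2.29 CPM, that is, counts scaled to equal library totals. The targeted gene ALKBH5 was lower in shA5 cells, which gave 145 input and 589 m6A-IP counts, than in shCTL cells, which gave 486 and 1432 (log2 change of the inputs -0.97, -1.25 to -0.70). Of 6 kidney markers, LHX1 was listed with 35 to 277 counts in each library, and PAX2, PAX8, UMOD, NPHS1 and AQP1 had at most 1 count. The 57 genes took 0.650% (shCTL) and 0.656% (shA5) of input counts, against 0.382% and 0.367% of m6A-IP counts.

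Glycolysis splits glucose into pyruvate in the cytosol, the pentose phosphate pathway branches off it to make NADPH and ribose 5-phosphate, and the pyruvate dehydrogenase complex passes pyruvate on to the TCA cycle in mitochondria. m6A is a methyl mark on adenosine of mRNA, most often laid down in the sequence RRACH (a purine, a purine, A, C and then A, C or T), of which GGACT is a frequent form. ALKBH5 removes the mark, and the ratio of m6A-IP to input measures how strongly the RNA of a gene is pulled down by the antibody.

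The GGACT sites of genes that the results below turn on were read from hg38 with the Gencode v44 transcripts, for the transcript with the most counts of each gene. They are shown for TALDO1 and IDH3A, whose enrichment differed between the populations, and for the most enriched genes. TALDO1 has 1, IDH3A has 2 and MDH2 has 2, and PFKFB4 has 7, of which the pair closest together is shown. Capitals mark GGACT, with 10 bases of the transcript on each side.
TALDO1, 3′ UTR in exon 8, plus strand (chr11:764851-764875): ccctgaggctGGACTccagatctgc
IDH3A, coding sequence in exon 10, plus strand (chr15:78166230-78166254): gcgccacatgGGACTttttgaccat
IDH3A, 3′ UTR in exon 11, plus strand (chr15:78169252-78169276): aactctgagtGGACTgtatcatttg
MDH2, coding sequence in exon 7, plus strand (chr7:76064343-76064367): cccccaaggtGGACTttccccagga
MDH2, 3′ UTR in exon 9, plus strand (chr7:76067142-76067166): cctaaagaagGGACTtcttgttgta
PFKFB4, 3′ UTR in exon 14, minus strand (chr3:48517938-48517962): aggagttgctGGACTggatgcatta
PFKFB4, 3′ UTR in exon 14, minus strand (chr3:48517920-48517944): tgcattacgaGGACTggggacaggg
The SUCLG1 transcript and the GLUD1 transcript hold no GGACT. Searched on the transcript strand, GGACT was missing from 6.67% of the 30 genes' transcripts and from 6.70% of the 5296 kept genes with a coding transcript in this annotation. A match is a sequence and not a measured m6A site.

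Most of the 30 genes had a smaller share of the m6A-IP than of the input. In shCTL cells the median log2 m6A-IP/input was -0.78 over the 30 genes and -0.11 over all 5320, and in shA5 cells it was -0.97 and -0.10. In shCTL, 17 of the 30 genes (56.7%) were depleted at least 1.5-fold, against 30.3% of all genes, and 2 (6.67%) were enriched at least 1.5-fold, against 22.5% of all genes. In shA5, 20 of 30 (66.7%) were depleted, against 31.7% of all genes, and 2 were enriched, against 24.3%. These counts set IP against input at equal library totals. Set against the 7 mitochondrially encoded mRNAs that passed the minimum, taken as unmethylated, whose median log2 m6A-IP/input was -0.71 in shCTL and -0.98 in shA5, 5 of the 30 were depleted in shCTL (PGK1, ENO1, PDK1, PDK3 and SUCLG1), against 9.83% of all genes, and 4 in shA5 (PGK1, TALDO1, PDK1 and SUCLG1), against 6.90%. Values below are at equal library totals unless said otherwise. PFKFB4 and MDH2 were the 2 enriched genes in each population. The minimum averages inputs and m6A-IPs, and MDH2 passed it only through its m6A-IPs. It had 156 (shCTL) and 134 (shA5) m6A-IP counts, against 53 and 34 in the inputs. With at least 50 counts in each input, a filter added after seeing the data, PFKFB4 alone passed in each population. With libraries thinned to the smallest total PFKFB4 alone passed in shCTL and MDH2 alone in shA5. With the GC trend removed MDH2 alone passed in shA5. With the top transcript of each gene PFKFB4 alone passed in each population. There MDH2 was not counted, because its top transcript fell below the minimum with 188 counts in all. That transcript stood at log2 1.37 in shCTL and 1.14 in shA5. The order of the genes was alike in both populations, with a Spearman correlation of 0.88 over the 30 genes and 0.93 over all 5320, given as a description because genes of 1 library share its depth and RNA.

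**Figure D1:**
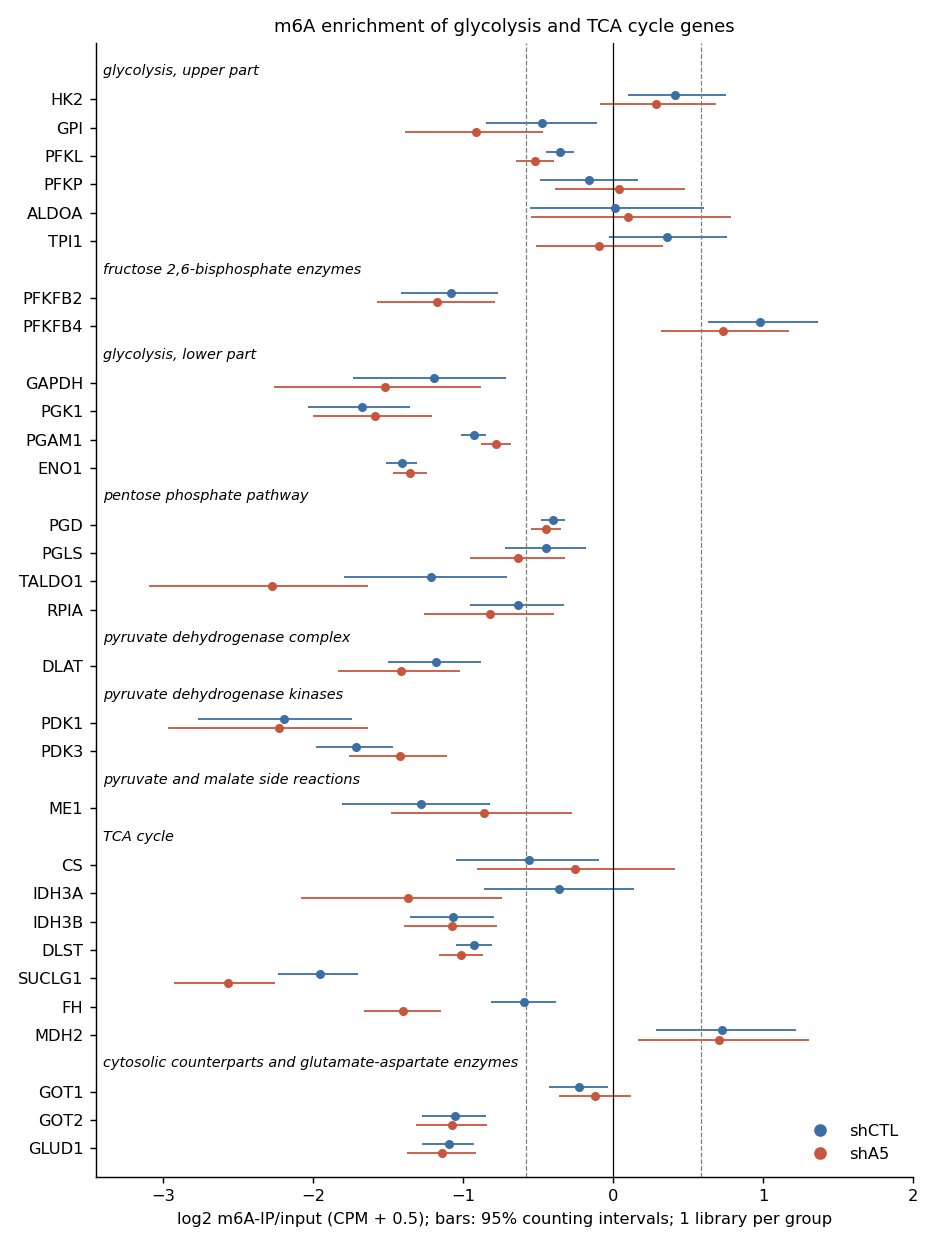
The plot of m6A enrichment by role gives the log2 m6A-IP/input of the 30 genes on the x axis, for shCTL (blue) and shA5 (red), with 95% counting intervals and dashed lines at 1.5-fold. The lower part of glycolysis, DLAT, the kinases PDK1 and PDK3, and SUCLG1 lie to the left of the lower line in both populations, and PFKFB4 and MDH2 lie to the right of the upper line.

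In the upper part of glycolysis, from glucose to the triose phosphates, the 6 kept genes had a median log2 m6A-IP/input of -0.07 in shCTL. HK2, the hexokinase that phosphorylates glucose, was highest of them at 0.41 (0.09 to 0.75) in shCTL and 0.29 (-0.09 to 0.68) in shA5. Triose phosphate isomerase TPI1 stood at 0.36 and -0.10, the aldolase gene ALDOA at 0.01 and 0.10, and the platelet-type phosphofructokinase PFKP at -0.16 and 0.04. The glucose 6-phosphate isomerase gene GPI was at -0.47 in shCTL and -0.92 in shA5, and the liver-type phosphofructokinase PFKL at -0.36 and -0.52. The intervals of the 2 populations overlapped for each of these 6 genes, though the interval of the PFKL change itself (-0.16, -0.32 to -0.01) lay below 0.

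The bifunctional enzymes that make and remove fructose 2,6-bisphosphate, the activator of phosphofructokinase, lay far apart. PFKFB4 had 82 input and 287 m6A-IP counts in shCTL cells, and 59 and 236 in shA5 cells. It was the most enriched of the 30 genes, 1.97-fold in shCTL (log2 0.98, 0.63 to 1.36), with log2 0.73 (0.32 to 1.17) in shA5. PFKFB2 had 180 and 149 counts in shCTL, and 108 and 114 in shA5, which gave log2 -1.08 (-1.41 to -0.77) in shCTL and -1.17 (-1.58 to -0.79) in shA5. So within this pair of enzymes one transcript pool was above the average pull-down and the other below it in both populations.

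All 4 kept genes of the lower part of glycolysis, from glyceraldehyde 3-phosphate to phosphoenolpyruvate, were depleted at least 1.5-fold in both populations. Phosphoglycerate kinase PGK1 was 3.19-fold below equal IP and input in shCTL (log2 -1.68, -2.03 to -1.36) and at -1.59 in shA5. Enolase ENO1 had 1967 input and 1303 m6A-IP counts in shCTL, and 1298 and 1216 in shA5, with log2 -1.41 (-1.51 to -1.31) and -1.36 (-1.47 to -1.24). Phosphoglycerate mutase PGAM1 was at -0.93 (-1.01 to -0.85) in shCTL and -0.78 (-0.88 to -0.68) in shA5, a change of 0.15 (0.02 to 0.28). GAPDH, the glyceraldehyde 3-phosphate dehydrogenase gene, was at -1.19 and -1.53. The median of these 4 in shCTL was -1.30, against -0.07 in the upper part. Against the mitochondrial mRNAs PGK1 and ENO1 stayed past 1.5-fold in shCTL and PGK1 in shA5, while GAPDH stood at -0.48 and -0.54 and PGAM1 at -0.22 and 0.20.

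ENO1 counts came from 2 transcripts with different pull-down. ENST00000234590 held 94.5% of the gene's counts and stood at log2 -1.53 in shCTL and -1.46 in shA5. ENST00000647408 had 51 input and 132 m6A-IP counts in shCTL, and 27 and 107 in shA5, which gave 0.54 and 0.71. Of the ENST00000647408 sequence, 3.31% is shared with no other transcript of the gene in Gencode v44, and the rule by which the authors' counts assign shared reads is not given in the sources used here.

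The 4 kept genes of the pentose phosphate pathway were all below 0 in both populations. The phosphogluconate dehydrogenase PGD, with 2111 input counts in shCTL, was at -0.40 (-0.48 to -0.32) in shCTL and -0.45 (-0.55 to -0.35) in shA5. The lactonase PGLS was at -0.45 and -0.64 and the ribose 5-phosphate isomerase RPIA at -0.64 and -0.82. Transaldolase TALDO1 was lowest, at -1.22 (-1.79 to -0.71) in shCTL and -2.28 (-3.10 to -1.64) in shA5.

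At the entry to the TCA cycle, DLAT, the acetyltransferase subunit of the pyruvate dehydrogenase complex, was at -1.18 in shCTL and -1.41 in shA5. The kinases that switch this complex off were the most depleted role. PDK1 had 121 input and 45 m6A-IP counts in shCTL and 61 and 30 in shA5, and with log2 -2.20 (-2.77 to -1.74) and -2.23 (-2.97 to -1.63) it was the lowest of the 30 genes in shCTL. PDK3 was at -1.72 (-1.98 to -1.47) and -1.42 (-1.76 to -1.11). The transcripts counted for these kinases were the longest of the 30, 14072 bases for PDK1 and 12720 for PDK3, and held 11 and 9 GGACT.

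Within the TCA cycle the 7 kept genes had a median of -0.60 in shCTL, spread from -1.96 for SUCLG1 to 0.73 for MDH2. MDH2, the mitochondrial malate dehydrogenase, had 53 input and 156 m6A-IP counts in shCTL and 34 and 134 in shA5, with log2 0.73 (0.28 to 1.22) and 0.70 (0.16 to 1.30). These values blend transcripts that differed. ENST00000315758, to which the sites above belong, held 49.9% of the counts and stood at 1.37 in shCTL and 1.14 in shA5, and the 648-base ENST00000461263 held 43.2% and stood at 0.16 and 0.25. Citrate synthase CS was at -0.56 and -0.26. The beta subunit of the NAD-dependent isocitrate dehydrogenase, IDH3B, was at -1.07 and -1.08, and its alpha subunit, IDH3A, at -0.36 and -1.37. DLST, the succinyltransferase of the oxoglutarate dehydrogenase complex, was at -0.93 and -1.01. FH, whose enzyme makes the malate that MDH2 oxidises, was at -0.60 and -1.40, below MDH2 in both populations.

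Outside the cycle, the malic enzyme ME1 was at -1.29 in shCTL and -0.86 in shA5. The aspartate aminotransferases differed from each other, with the cytosolic GOT1 at -0.23 (-0.43 to -0.03) and the mitochondrial GOT2 at -1.06 (-1.27 to -0.85) in shCTL. The glutamate dehydrogenase gene GLUD1 was at -1.10 in shCTL and -1.14 in shA5.

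Between the populations, 4 of the 30 genes (13.3%) had a m6A enrichment at least 1.5-fold lower in shA5, against 5.09% of all genes. These were FH, SUCLG1 and IDH3A of the TCA cycle and TALDO1. No gene of the 30 was at least 1.5-fold higher, against 5.38% of all genes. FH had prompted the choice of the set, so its place in the count of 4 carries no weight of its own, and without it the count was 3 of 29 (10.3%). The median change was -0.07 over the 30 genes and -0.05 over the 29 without FH, against 0.0036 over all genes, with 21 of 30 below 0 and 2636 of 5320 below 0.

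FH had 333 input counts (149 CPM) and 387 m6A-IP counts (98.1 CPM) in shCTL cells. In shA5 cells it had 266 input counts (203 CPM) and 241 m6A-IP counts (76.6 CPM). Its input was thus higher in shA5 and its m6A-IP lower. The log2 m6A-IP/input was -0.60 (-0.82 to -0.39) in shCTL and -1.40 (-1.66 to -1.15) in shA5, a change of -0.80 (-1.14 to -0.47) or 1.74-fold. Both sides of the ratio contributed, with 0.45 (0.21 to 0.68) in the inputs and -0.36 (-0.60 to -0.12) in the m6A-IPs. The FH gene spans chr1:241497511-241519799 (hg38, minus strand), and its single listed transcript, ENST00000366560, has 1791 bases.

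TALDO1 had 70 input counts (31.3 CPM) and 52 m6A-IP counts (13.2 CPM) in shCTL, and 53 (40.4 CPM) and 25 (7.94 CPM) in shA5. Its enrichment changed by -1.06 (-2.03 to -0.19), and with a mean of 50 counts it stood exactly at the minimum. IDH3A had 60 input counts (26.8 CPM) and 82 m6A-IP counts (20.8 CPM) in shCTL, and 42 (32.0 CPM) and 38 (12.1 CPM) in shA5, a change of -1.01 (-1.89 to -0.19). For both genes the interval of the m6A-IP change lay below 0, and that of the input change included 0. An exon of the IDH3A transcript overlaps ACSBG1 on the other strand, and whether the counting used strand is not given in the sources used here.

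SUCLG1, the alpha subunit of succinyl-CoA ligase, had 380 input counts (169.8 CPM) and 171 m6A-IP counts (43.4 CPM) in shCTL, and 261 (199 CPM) and 104 (33.0 CPM) in shA5. Its pull-down was low in both populations, at -1.96 (-2.24 to -1.71) and -2.57 (-2.93 to -2.26), and the change was -0.62 (-1.06 to -0.19). By counting intervals alone, 5 of the 30 genes (16.7%) had a change below 0, these 4 and PFKL, or 4 of 29 (13.8%) without FH, which had prompted the choice of the set, against 8.06% of all genes, and PGAM1 (3.33%) had a change above 0, against 8.18%. PFKL passed with a small change of -0.16 (-0.32 to -0.01) with 804 to 2228 counts in each library, and with the mitochondrial reference its change turned to 0.11.

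**Figure D2:**
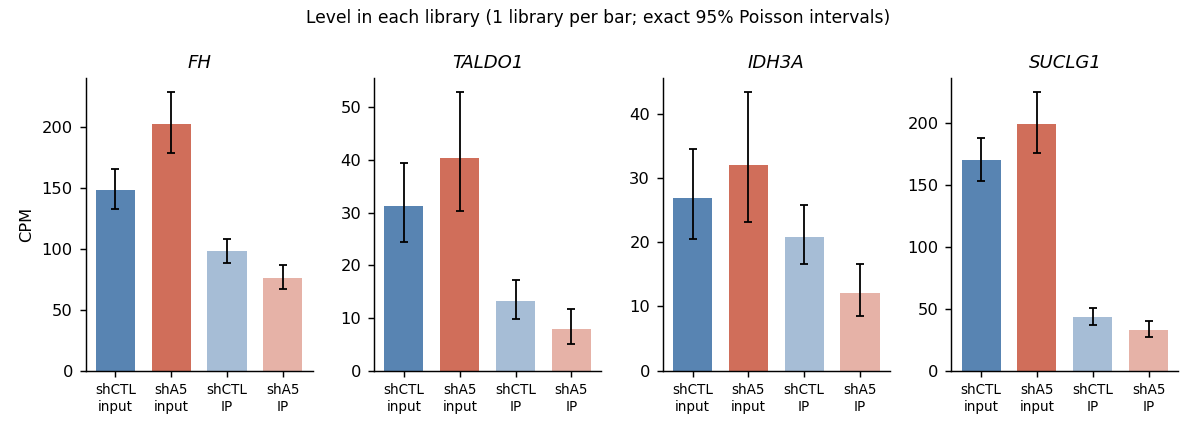
The plot of levels by library gives the CPM of FH, TALDO1, IDH3A and SUCLG1 on the y axis in the 4 libraries, 1 library per bar, with exact 95% Poisson intervals. In each gene the shA5 m6A-IP bar is the lowest and the shA5 input bar the highest.

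The 1.5-fold calls depended on the processing. TALDO1 and IDH3A rested on few counts, and other rules for which genes are counted left them out: TALDO1 fell below the minimum when only the top transcript was counted, IDH3A when at least 50 counts were asked of each input, and both at a minimum mean of 200 counts. With the GC trend removed, SUCLG1 stood at -0.57, inside 1.5-fold. With the mitochondrial mRNAs as the reference, every change moved up by 0.27, so FH stood at -0.53 and SUCLG1 at -0.34, inside 1.5-fold, while IDH3A stood at -0.74 and TALDO1 at -0.79. The intervals of TALDO1, IDH3A and SUCLG1, with upper ends of -0.19 each at equal library totals, then include 0, as does that of PFKL. Of the intervals below 0, only that of FH, which had prompted the choice of the set, stays below 0 (upper end -0.47 at equal totals). On that scale 1 gene of the 30, ME1, was higher and 2 were lower, against 16.3% and 1.48% of all genes, and the median change was 0.21 over the 30 genes and 0.278 over all genes.

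None of the 30 genes was at least 1.5-fold higher or lower in the shA5 input, against 3.44% and 6.43% of all genes, and the median input change was 0.05. The widest change upward was 0.57 (0.09 to 1.06) for TPI1, with 80 counts in shCTL and 70 in shA5, and the widest downward was -0.42 (-1.08 to 0.20) for CS, with 71 and 31. By counting intervals, TPI1, ENO1, FH and GOT2 (13.3%) were higher in shA5, against 12.9% of all genes, and PFKL, PDK3 and GLUD1 (10%) were lower, against 15.6%. Those of ENO1 (0.17, 0.07 to 0.27) and PFKL (-0.24, -0.36 to -0.12) were the most precise of these. In the m6A-IPs, ENO1 and GOT2 (6.67%) were higher, against 18.9% of all genes, and PFKL, TALDO1, RPIA, IDH3A, SUCLG1, FH and GLUD1 (23.3%) were lower, against 21.6%. FH, which had prompted the choice of the set, is counted among the higher inputs and the lower m6A-IPs. Its place there carries no weight of its own, and without it both shares lie below those of all genes. A lower level in every cell and a lower share of cells that express a gene cannot be told apart in such bulk samples.

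**Figure D3:**
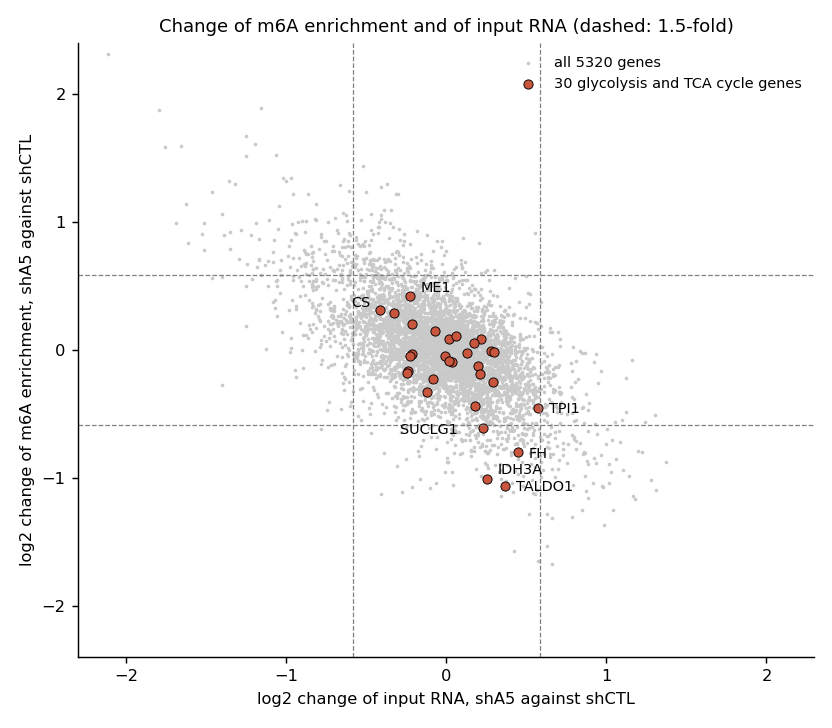
The plot of the 2 changes gives the log2 change of input RNA on the x axis and of m6A enrichment on the y axis, both shA5 against shCTL, for all 5320 genes (grey) and the 30 genes (red), with dashed lines at 1.5-fold. FH, IDH3A, TALDO1 and SUCLG1 lie below the lower line, and no red point lies outside the vertical lines. The inputs enter both axes, with opposite sign, so the downward slope of the cloud is built in.

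GAPDH, one of the reference genes of the study's quantitative PCR, was listed with 78 input and 59 m6A-IP counts in shCTL, and with 42 and 34 in shA5. Its input change was -0.12 (-0.70 to 0.44), an interval that leaves room for differences beyond 1.5-fold downward. The primers match the GAPDH transcript ENST00000396858, GAPDH-F on bases 297 to 316 and GAPDH-R on bases 413 to 432, and are shown to place that assay on the transcript.
GAPDH-F: atggcaaattccatggcacc
GAPDH-R: gactccacgacgtactcagc

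These are few counts for an mRNA known to be abundant in cultured cells, and some other genes of the set had fewer still. LDHA, the lactate dehydrogenase A gene, had 2 input and 0 m6A-IP counts in shCTL, and 5 and 2 in shA5. MDH1, the cytosolic malate dehydrogenase gene, had 3 and 0 in shCTL, and 1 and 2 in shA5. PKM, the pyruvate kinase gene, had 31 and 31 in shCTL, and 20 and 24 in shA5, spread over 6 listed transcripts. Over all listed genes, the median mean count was 53.75 for genes with 1 coding transcript in Gencode v44, 25.25 with 2 to 3, 17.75 with 4 to 6 and 16 with 7 or more. In the set, all 5 genes with 1 coding transcript were kept, against 51.0% of all listed genes of that kind, and of those with 7 or more 9 of 26 (34.6%), against 27.0%. Single genes did not all follow this order. ENO1 with 8 coding transcripts, GLUD1 with 10 and DLAT with 10 had mean counts of 1446, 429 and 141.5, and TKT with 3, DLD with 3 and PDHB with 4 had 6.25, 8 and 1.5. GAPDH also has 64 processed pseudogenes named after it, PGAM1 has 13 and FH has 1. Exons of TPI1, GAPDH, PGLS, DLAT, PDK1, CS, IDH3A, GOT2 and GLUD1 overlap genes on the other strand, and those of GPI, PFKP, ALDOA and CS overlap another annotated gene on the same strand, so counts of these genes are uncertain in the overlaps. The part of shared reads in these levels was not tested, and levels between these genes are therefore levels of listed counts.

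**Figure D4:**
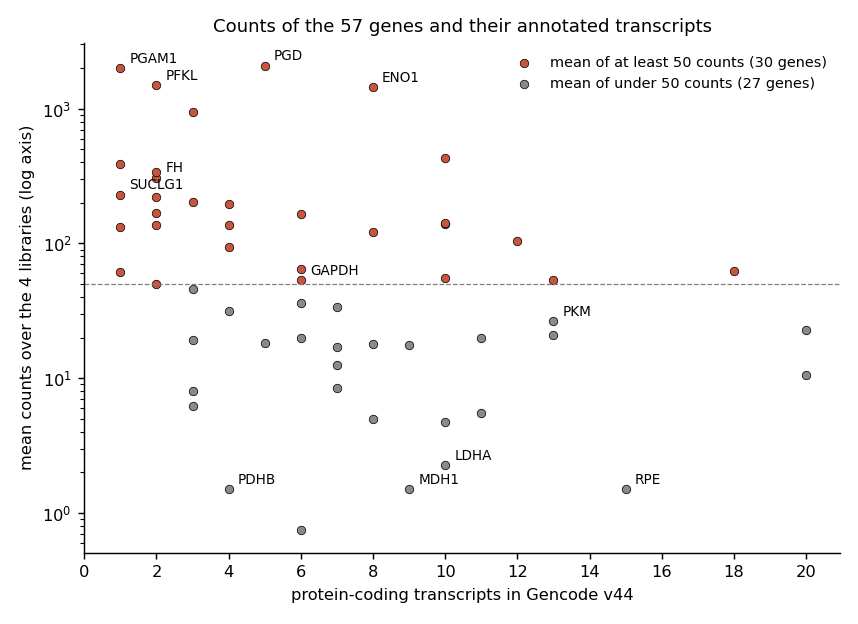
The plot of counts by annotated transcripts gives the mean count over the 4 libraries of the 57 genes (y, log axis) against the number of protein-coding transcripts of the gene in Gencode v44 (x), with the minimum of 50 dashed. PGAM1, PFKL, PGD and ENO1 lead, and LDHA, MDH1, PDHB and RPE have means under 3 counts, as does the unlabelled PDHX.

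Per length of the transcript, the highest inputs in shCTL were those of PGAM1 with 606 CPM per kb, ENO1 with 493, PGD with 416, PFKL with 249 and DLST with 187.

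Below the minimum were 27 genes. Both lactate dehydrogenase genes, 4 of 5 genes of the pyruvate dehydrogenase complex and 5 of 12 TCA cycle genes were among them, and 11 of the 27 had means under 10. In glycolysis and beside it these were HK1, PFKM, ALDOC, PFKFB3, ENO2, ENO3, PKM, LDHA and LDHB, with mean counts from 2.25 (LDHA) to 33.75 (the enolase ENO2). In the pentose phosphate pathway they were the transketolase gene TKT with a mean of 6.25 and RPE, the epimerase gene, with 1.5. In and around the pyruvate dehydrogenase complex, PDHA1 had a mean of 18.25, PDHB 1.5, PDHX 0.75, DLD 8 and the kinase PDK2 18. The pyruvate carboxylase PC had 5.5, the mitochondrial PEP carboxykinase PCK2 17.75 and the mitochondrial malic enzyme ME2 12.5. In the cycle and its cytosolic counterparts, IDH2, IDH3G, OGDH, SUCLA2, SUCLG2, ACO1, IDH1 and MDH1 had means from 1.5 (MDH1) to 45.75 (ACO1, the cytosolic aconitase that also binds RNA as an iron regulatory protein).

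Some of these genes had intervals off 0 in spite of few counts. ME2 had 27 input and 5 m6A-IP counts in shCTL, and 15 and 3 in shA5, so its log2 m6A-IP/input was -2.83 (-4.98 to -1.85) and -3.04 (-6.02 to -1.76). LDHB had 38 and 18 in shCTL, and 18 and 6 in shA5, with -1.79 (-2.79 to -1.05) and -2.56 (-4.47 to -1.45). ACO1 had 52 input counts in shCTL and 53 in shA5, or 23.2 and 40.4 CPM, an input change of 0.79 (0.22 to 1.38). SUCLG2, the beta subunit that makes the GTP-forming succinyl-CoA ligase with SUCLG1, had 55 and 31 counts in shCTL, and 29 and 10 in shA5, a change of enrichment of -1.04 whose interval (-2.54 to 0.15) included 0. A change of enrichment whose interval lay below 0 was seen for 2 of the 27 (7.41%), against 2.39% of the 9591 genes below the minimum. HK1, the hexokinase gene most tissues express, had 15 input and 47 m6A-IP counts in shCTL, and 12 and 17 in shA5, a change of -1.50 (-3.09 to -0.07). IDH2, the mitochondrial NADP-dependent isocitrate dehydrogenase gene, had 20 and 29 in shCTL, and 21 and 7 in shA5, a change of -2.33 (-4.28 to -0.95). None of the 27 had a change of enrichment with an interval above 0, against 2.28% of the genes below the minimum.

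The transcripts of the 30 genes were shorter than those of all kept genes, with a median of 2523.5 against 3590 bases, and their 3′ UTRs were 980 against 1435.5 bases. They held a median of 34 against 47 RRACH and 2 against 3 GGACT, but per kb 12.7 against 13.3 RRACH. Across the 30 genes the Spearman correlation of the log2 m6A-IP/input in shCTL with GGACT per kb was 0.37, against 0.17 across 5296 genes. With 3′ UTR length, transcript length and number of RRACH it was near 0. These values were -0.11, -0.08 and -0.08 across the 30 genes, and -0.06, -0.02 and -0.03 across the 5296. These are descriptions over genes of 1 pair of libraries.

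A list of 52 other genes of the same pathways (transporters, phosphatases, succinate dehydrogenase and others) served as a comparison. Of 42 listed, 14 were kept. In shCTL, 2 were enriched (14.3%, against 22.5% of all genes) and 6 depleted (42.9%, against 30.3%). In shA5, 4 were enriched (28.6%, against 24.3%) and 7 depleted (50%, against 31.7%). The 2 enriched in shCTL were PDP2, a pyruvate dehydrogenase phosphatase that undoes the work of the PDK kinases, at log2 1.05, and the monocarboxylate transporter SLC16A1 at 0.91. Between the populations 1 was lower, PGM2 at -0.66, and 1 was higher, ADPGK, an ADP-dependent glucokinase, at 0.62 (7.14% each, against 5.09% and 5.38% of all genes). Their median change was -0.07, and none passed 1.5-fold in the inputs, against 3.44% upward and 6.43% downward of all genes. The succinate dehydrogenase subunits SDHB and SDHC, which act just before FH, changed by -0.05 and -0.23.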

How the data were processed

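For each of the 4 libraries the authors deposited raw counts, 1 value per Ensembl transcript. The submitters' processing notes name bcl2fastq 2.0, fastp 0.23.2, HISAT2, SAMtools 1.9, MACS2 and hg38, and the methods name StringTie for quantification. Whether StringTie wrote these counts, and the rule for shared reads, are not given in the sources used here. Counts were summed per gene name (no blank names) and divided by library totals (CPM). m6A enrichment was log2 (m6A-IP/input) with 0.5 CPM added on each side, and changes were shA5 minus shCTL. Genes averaging 50 counts or more per library were used, and 1.5-fold was the threshold. Intervals (95%) were Clopper-Pearson for ratios and conditional odds ratios for changes, and cover counting error only, since each group had 1 library. The paper's methods name no molecular identifiers.

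Named were FH, GAPDH, ALKBH5, every kept gene past 1.5-fold between populations, the 5 highest and 5 lowest in enrichment and the 5 highest inputs per kb. The other kept genes were given a value within their role. The genes and lists were chosen with earlier results of these data known. Steps were tested on simulated data. Tools were R 4.3.3, DESeq2 1.42.0, edgeR 4.0.16 and Python 3.11.15 (scipy 1.17.1, statsmodels 0.14.6, pandas 2.3.3, numpy 2.4.6). Positions and sequences are from Gencode v44, which holds 98.1% of the transcripts. Alternatives were edgeR TMM and DESeq2 size factors, mitochondrial mRNAs as reference, other pseudocounts, filters and threshold, 1 transcript per gene, thinning, a lowess trend on GC content (span 0.3) and genes without processed pseudogenes. Some sequences of these genes are not reported here.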

Additional observations from a re-analysis of the deposited data

How the results depend on the processing

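No paired analysis was possible because there was a single library per group, and for the same reason no library could be left out. Of 377 recomputed values 343 stayed within 1.5 times (counts) or within their interval (medians and single genes), and of 270 values of named genes 264 did. No change past 1.5-fold turned its sign, but 23 of 295 recomputed changes and medians did, all with main values inside 1.5-fold. With edgeR TMM or DESeq2 size factors, or pseudocounts of 0.1 or 2 CPM, each of the 8 main results kept its value or stayed within its interval. All TMM and DESeq2 factors lay between 0.996 and 1.004, so these settings could hardly move a value, and their values are among the 377. Enriched genes in shCTL numbered 2, and 5 with mitochondrial mRNAs as reference (50.5% of all genes), 1 with the top transcript only (of 25, 24.3%), with thinning (22.8%) or with at least 50 counts in each input (of 25, 19.5%, added after seeing the data), and 0 with a minimum of 200 counts (of 12, 29.1%) or at 2-fold (10.1%). In shA5 they numbered 2, and 8 (61.7% of all genes), 1 (26%), 1 (24.6%), 1 (20.3%), 0 (31.0%) and 0 (12.0%) under the same settings, 4 with no filter (of 57, 24.5%) and 1 with the GC trend removed (22.4%). Genes lower in enrichment numbered 4, and 2 with the mitochondrial reference (1.48%, also the median change, -0.07, was then 0.21), 2 at 200 counts (of 12 kept, 1.08% of all genes), 2 at 2-fold (0.771%), 10 at 10 counts (of 46, 13.0%) and 11 with no filter (of 57, 21.4%). Genes higher in enrichment numbered 0, and 1 (mitochondrial reference, 16.3%), 2 (at 10 counts, 12.6% of all genes) and 7 (no filter, 22.7%). Inputs past 1.5-fold upward numbered 0, and 2 at 10 counts (9.32% of all genes), 4 with no filter (15.3%), 1 (TPI1) with the top transcript only (3.44%) and 1 (ACO1) with at least 50 counts in each input (2.88%); downward they numbered 0, and 7 with no filter (19.9%). The larger counts with a lower minimum came with more genes of few counts, and the mitochondrial reference leaves input changes as they are. For GAPDH the enrichment change was -0.33 and 0.54 with its top transcript, which had 66 counts in all. With 1 library per group, the spread between libraries is unknown.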
